A study of Mus musculus with 20 samples.

Results

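*Gm6455*, *Speer1-ps1*, *Gm6460* and *4933402N22Rik* are 4 Speer-related genes of mouse chromosome 5 that were chosen by their rise in regulatory T cells (Tregs) after 90 min of IL-2. They are 4 of the 23992 gene symbols in the RNA-seq tables, and the tables hold 1 transcript for each. Tregs, sorted for GFP from the spleen and lymph nodes of B6-Foxp3EGFP mice, and CD8+ T cells, isolated by kit from C57BL/6J mice, were left without cytokine, or were given a 200 nM dose of either IL-2 or its variant IL-2-REH and taken after 90 min or 4 hr. The strain label reads C57BL/6N for all samples. IL-2-REH carries mutations in the face that contacts the common gamma chain and was made as a partial agonist. The Treg set held 15 libraries in 5 groups of 3, and the CD8+ set 5 libraries, a single one per group. Nothing in the labels says that replicates came from separate mice, so the p-values measure the spread between these libraries, which may be technical.

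IL-2 signals through the IL-2R beta chain and the common gamma chain, which activate JAK kinases and the transcription factor STAT5. STAT5 binds DNA as a dimer at TTCNNNGAA sites, and *Cish*, a feedback inhibitor of cytokine signaling, is among its best known targets. The Speer family takes its name from spermatogenesis-associated glutamate-rich proteins. It is a multicopy family of rodents, known from the testis, with many pseudogenes. No function in T cells is assumed here for any of the 4 genes.

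The 4 genes lie on the plus strand of chromosome 5 within 1.06 Mb, in the RefSeq annotation of GRCm38.p6. *Gm6455*, which RefSeq lists as a transcribed pseudogene and GENCODE M21 as a lincRNA, spans chr5:10865029-10870808. *Speer1-ps1* spans chr5:11340408-11346273 and is now listed as the protein-coding gene *Speer1*. *Gm6460*, at chr5:11594956-11599480, and *4933402N22Rik*, at chr5:11918043-11922804, are both listed as protein coding. Each has 5 exons in its longest GENCODE transcript, and no annotated gene overlapped any of the 4 in either annotation (0 overlaps). Upstream of *Speer1-ps1*, *Gm6460* and *4933402N22Rik*, GENCODE lists a lincRNA on the minus strand that starts 1219, 1134 and 1207 bases before their GENCODE starts. RefSeq lists 43 genes from the start of *Gm6455* to the end of *4933402N22Rik*, of which the tables hold 5. The map of the array shows that 10 of the others are sequence relatives of the 4 genes, defined as GENCODE genes with a blastn match on the same strand over at least 50% of a transcript of the 4. None of these 10 is in the tables, so their reads were not analysed here.

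**Figure D1:**
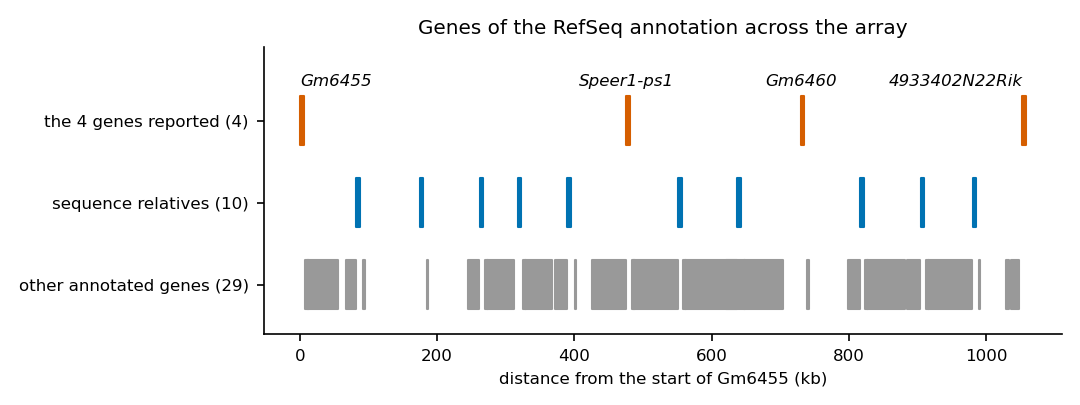
Positions of the 43 genes that RefSeq lists across the array, with the distance in kb from the start of Gm6455 on the horizontal axis. The 4 genes reported (top row) are interspersed with 10 sequence relatives (middle row), and 29 other annotated genes fill the bottom row.

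The transcripts of the 4 genes are nearly the same sequence. Pairwise identity of the longest GENCODE transcripts ran from 94.96% between *Gm6455* and *Speer1-ps1* to 98.9% between *Gm6460* and *4933402N22Rik*. A stretch of 150 bases from within the *Gm6460* coding sequence, shown as an example of how the copies compare, differs at 2 positions among the 4 genes. It is a more alike stretch than the rest, since 50 of the 522 coding positions aligned in all 4 genes differ. Capitals mark those positions, and the stretch is base 239 to base 388 of the *Gm6460* transcript, with the matching bases of the others.
Gm6455: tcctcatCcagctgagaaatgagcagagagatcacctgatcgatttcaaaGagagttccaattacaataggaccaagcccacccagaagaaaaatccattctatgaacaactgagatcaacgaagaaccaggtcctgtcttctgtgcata
Speer1-ps1: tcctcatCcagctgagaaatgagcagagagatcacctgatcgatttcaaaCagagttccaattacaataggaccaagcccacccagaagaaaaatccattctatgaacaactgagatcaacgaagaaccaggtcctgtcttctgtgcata
Gm6460: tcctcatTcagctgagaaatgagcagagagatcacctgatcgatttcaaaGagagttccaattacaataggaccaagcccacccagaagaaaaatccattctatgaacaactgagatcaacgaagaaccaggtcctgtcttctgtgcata
4933402N22Rik: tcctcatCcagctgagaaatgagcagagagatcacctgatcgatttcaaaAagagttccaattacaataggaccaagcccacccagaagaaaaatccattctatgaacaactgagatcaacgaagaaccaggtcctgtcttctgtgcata

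Reads were 50 bases long, so each 50-base window of the transcripts was looked up in the GENCODE transcripts of all other genes. For *Gm6460*, 0 of 1119 windows were found in no other gene. The number was 142 of 1023 windows (13.9%) for *Gm6455*, 122 of 1074 (11.4%) for *Speer1-ps1* and 150 of 1076 (13.9%) for *4933402N22Rik*. The relative *Gm8871* alone holds 1001 of the 1119 *Gm6460* windows. The authors kept uniquely mapped reads, and how a read was placed among copies is not given in the sources used here. The values below are therefore given as the tables list them, and reads from a shared window cannot be told apart between the 4 genes and their unlisted relatives.

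RefSeq promoter windows, which run from 250 bases before a start to 50 bases after it, were at hand for 3 of the 4 genes, with 2 starts for *Speer1* (*Speer1-ps1*). The TTCNNNGAA motif, which is its own reverse complement, stood in 3 of these 4 windows, with 1 match in each. It stood in 2726 of all 32851 promoter windows (8.30%). Of the 28 windows of the other relatives and Speer-named genes it stood in 1, that of *Gm5861* in the same array. *Gm5861* was the only relative in the array with a window, so the motif was not looked up in the others there. In blastn matches to a transcript of the 4 genes, identity was 98.4% for *Gm5861*, 89.8% for *Speer3* and 72.3% for *Speer4e*. The windows of *Gm6460* and *4933402N22Rik* were identical at 298 of 300 bases, and the match began 147 bases before the start in both. In *Speer1* the match began 104 bases before the second start. That window was identical to each of the other 2 at 241 of 246 aligned bases, so the 3 matches are not independent. The window of the first *Speer1* start, which is the RefSeq start of the gene given above, held none. Below are the bases around the match, shown because all 3 genes hold the same 9 letters there. The matching part of *Speer3* and *Speer4e*, which held no match, follows for comparison. Capitals mark the motif, all sequences are RefSeq, GRCm38.p6, and all lie before the start concerned.
Gm6460, chr5:11594739-11594887, plus strand: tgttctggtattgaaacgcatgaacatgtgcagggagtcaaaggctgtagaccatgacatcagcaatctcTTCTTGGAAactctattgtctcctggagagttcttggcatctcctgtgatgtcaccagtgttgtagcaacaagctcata
4933402N22Rik, chr5:11917826-11917974, plus strand: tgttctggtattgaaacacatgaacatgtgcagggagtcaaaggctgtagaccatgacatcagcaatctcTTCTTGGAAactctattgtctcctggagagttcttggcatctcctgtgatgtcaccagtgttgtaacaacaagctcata
Speer1, second start, chr5:11341287-11341446, plus strand: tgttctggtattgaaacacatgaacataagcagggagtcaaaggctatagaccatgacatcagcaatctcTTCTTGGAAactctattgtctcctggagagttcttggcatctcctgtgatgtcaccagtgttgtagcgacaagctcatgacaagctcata
Speer3, chr5:13791509-13791618, plus strand: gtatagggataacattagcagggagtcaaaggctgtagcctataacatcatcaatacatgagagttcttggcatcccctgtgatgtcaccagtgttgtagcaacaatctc
Speer4e, chr5:14938476-14938584, minus strand: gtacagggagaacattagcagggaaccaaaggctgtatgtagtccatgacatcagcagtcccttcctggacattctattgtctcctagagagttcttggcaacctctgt
A match says that these letters are present, not that a factor binds there.

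In Tregs, all 4 genes were low without cytokine, highest after 90 min of IL-2 and intermediate with IL-2-REH. Levels are given in RPKM, reads per kilobase of exon scaled to the mapped reads of the library, so that genes can be compared per length. Libraries held 33041984 to 88760887 mapped reads. *Gm6460* read 0.196, 0.1 and 0.421 RPKM in unstimulated replicates 1 to 3, and 1.77, 3.38 and 6.93 RPKM with IL-2 at 90 min. It read 1.10, 0.372 and 1.61 RPKM with IL-2-REH at 90 min. At 4 hr, *Gm6460* read 1.52, 2.48 and 3.28 RPKM with IL-2, and 0.586, 0.372 and 1.27 RPKM with IL-2-REH. Every IL-2 library was thus above every unstimulated library at both times, and above every IL-2-REH library of its own time. Behind the *Gm6460* values stand 6 to 21 reads per unstimulated library and 94 to 365 reads per library with IL-2 at 90 min.

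*Gm6455* moved in the same way at a similar level. It read 0.225, 0.141 and 0.522 RPKM in unstimulated replicates 1 to 3, then 1.81, 3.35 and 7.18 RPKM with IL-2 and 1.09, 0.595 and 1.57 RPKM with IL-2-REH at 90 min. At 4 hr it read 1.09, 2.56 and 2.0 RPKM with IL-2, against 0.727, 0.360 and 1.19 RPKM with IL-2-REH. The 90 min groups did not overlap, whereas at 4 hr IL-2-REH replicate 3 was above IL-2 replicate 1. *Speer1-ps1*, the named family member of the 4, had the highest unstimulated level, at 0.32, 0.235 and 0.580 RPKM. It read 2.2, 3.63 and 6.73 RPKM with IL-2, then 1.46, 0.684 and 1.72 RPKM with IL-2-REH at 90 min, and 1.45, 2.51 and 2.30 RPKM with IL-2 against 0.994, 0.552 and 1.72 RPKM with IL-2-REH at 4 hr. Here too the cytokine groups were apart at 90 min and overlapped at 4 hr, again through IL-2-REH replicate 3 and IL-2 replicate 1.

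*4933402N22Rik* was the lowest of the 4 genes in 9 of the 15 Treg libraries, and *Speer1-ps1* the highest in 11. *4933402N22Rik* read 0.145, 0.136 and 0.505 RPKM in unstimulated cells, 1.54, 2.83 and 6.55 RPKM with IL-2 at 90 min and 0.889, 0.348 and 1.46 RPKM with IL-2-REH at 90 min. At 4 hr it read 1.36, 2.37 and 2.76 RPKM with IL-2, and 0.848, 0.319 and 1.40 RPKM with IL-2-REH. Within a library the highest of the 4 genes was 1.08 to 2.35 times the lowest. As a description over the 15 Treg libraries, which all pairs share, Pearson's r between the log2 CPM of 2 of the genes lay between 0.982 and 0.995. In such pairs, 41.6% to 65.1% of the 50-base windows of a gene also stood in the other. The part of this shared sequence in r was not tested.

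Group means carried a wide spread. Mean ± SD of *Gm6460* was 0.239 ± 0.165 RPKM in unstimulated Tregs, 4.03 ± 2.64 with IL-2 at 90 min, 1.03 ± 0.624 with IL-2-REH at 90 min, 2.43 ± 0.881 with IL-2 at 4 hr and 0.742 ± 0.467 with IL-2-REH at 4 hr (n = 3 each). The largest group mean, that of IL-2 at 90 min, was 4.19 ± 2.32 RPKM for *Speer1-ps1*, 4.11 ± 2.77 for *Gm6455* and 3.64 ± 2.60 for *4933402N22Rik*. Summed over the 4 genes, the means were 1.18 ± 0.750 RPKM unstimulated, 16.0 ± 10.3 with IL-2, against 4.30 ± 2.19 with IL-2-REH at 90 min, then 8.56 ± 2.73 and 3.44 ± 2.0 at 4 hr. Replicate 3 was highest for all 4 genes in unstimulated cells and with each cytokine at 90 min, as the plot of RPKM by library shows. The order of groups is a description, because the genes were chosen by IL-2 over unstimulated cells at 90 min. Of the 12 combinations of a gene and a replicate number, 12 had IL-2 above IL-2-REH above unstimulated at 90 min, and 12 had the same order at 4 hr. These 12 are not independent, because the genes share sequence and the 2 times share the unstimulated libraries. The share of all genes with this order was not counted.

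**Figure D2:**
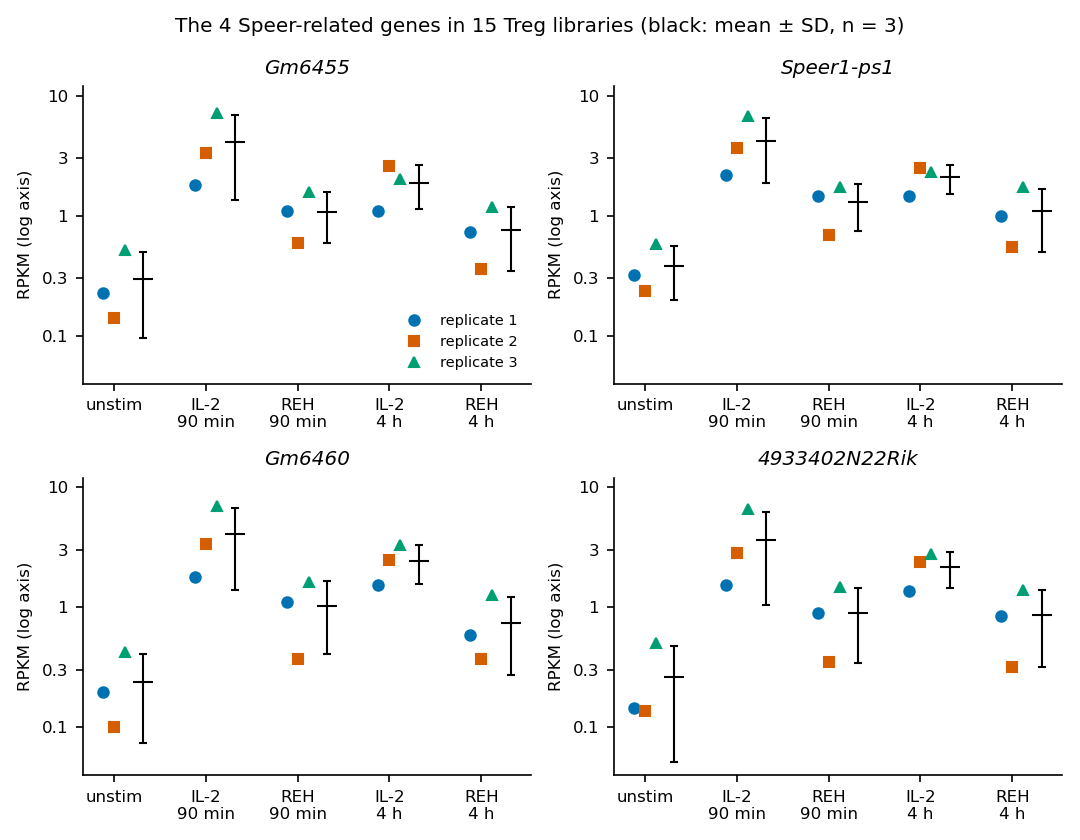
RPKM (log axis) of the 4 genes in each Treg library, with replicates 1 to 3 as circles, squares and triangles and the mean ± SD in black (n = 3). IL-2 points lie above IL-2-REH points of the same replicate at both times, and replicate 3 is highest in unstimulated cells and at 90 min.

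Treg and CD8+ markers matched the labelled cells, and markers of some other cell types were also read. The summed RPKM of *Foxp3*, *Il2ra*, *Ctla4*, *Ikzf2* and *Cd4* was 505 to 1061 in Treg libraries and 12.6 to 28.3 in CD8+ libraries. Because the Speer family is known from the testis, 7 testis and germ cell markers were also read. Their sum was at most 0.304 RPKM in any Treg library, with *Acrv1* at 0 reads in every group, and its ranges overlapped in all 5 groups. Erythroid markers ranged from 4.36 to 200 RPKM between Treg libraries, and B cell markers from 0.347 to 9.25 RPKM, with ranges that also overlapped in all 5 groups. Macrophage markers (*Lyz2*, *Csf1r* and *Cd68*) summed to 7.12 to 50.8 RPKM in Treg libraries, again overlapping in all 5 groups, and to 12.8 to 27.0 RPKM in CD8+ libraries. *Cd8a*, *Cd8b1* and *Cd3e*, of which *Cd3e* is shared by all T cells, summed to 425 to 987 RPKM in CD8+ libraries and 89.2 to 258 RPKM in Tregs.

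IL-2 at 90 min against unstimulated cells is the contrast that chose the genes, so its values are a description. On the log2 scale of an edgeR fit over the 15 Treg libraries, the difference was 4.26 for *Gm6460* (SE 0.82), 4.00 for *4933402N22Rik* (SE 0.84), 3.99 for *Gm6455* (SE 0.75) and 3.65 for *Speer1-ps1* (SE 0.63). The median of the 4 was 4.00, which is 16.0-fold, beside -0.06 over all 15009 genes of the fit. All 4 were among the genes called higher in this contrast (adjusted p under 0.05), which were 0.78% of those 15009, and all 4 had groups that did not overlap in RPKM, as did 7.14% of the genes. Nothing is read from these 2 counts. The calls were also not stable, with 0 of 4 in a fit of only the compared groups, without replicate number 2 or 3, without unstimulated replicate 2 and without IL-2 replicate 3, and 2 of 4 without unstimulated replicate 3 or IL-2 replicate 2. The choice had no numeric limit. *Speer1-ps1* was the lowest of the 4 genes, and *Speer6-ps1*, the next Speer-named gene outside the choice, differed by 3.62 (SE 1.37) on far fewer reads. The median of the 4 genes was 3.16 without IL-2 replicate 3 and 4.79 without unstimulated replicate 3.

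By replicate number, the summed RPKM of the 4 genes rose from 0.886 to 7.32 in replicate 1, from 0.612 to 13.2 in replicate 2 and from 2.03 to 27.4 in replicate 3, ratios of 8.26, 21.6 and 13.5. IL-2-REH gave ratios of 5.12, 3.26 and 3.13 over the same unstimulated libraries. The IL-2-REH sum was thus 62.0%, 15.1% and 23.2% of the IL-2 sum in replicates 1 to 3. Replicate 1 had both the smallest IL-2 ratio and the largest IL-2-REH ratio.

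The remaining comparisons with unstimulated cells share their libraries with the contrast that chose the genes and are values only. IL-2-REH at 90 min was above unstimulated cells by 2.23 for *Gm6460* (SE 0.77), 2.0 for *Gm6455* (SE 0.70), 1.93 for *4933402N22Rik* (SE 0.79) and 1.89 for *Speer1-ps1* (SE 0.60) on the log2 scale. RPKM groups did not overlap for *Gm6455* and *Speer1-ps1*, 2 of 4 genes, beside 5.72% of all genes. IL-2 at 4 hr was above unstimulated cells by 3.39 (SE 0.80), 2.7 (SE 0.71), 3.10 (SE 0.82) and 2.51 (SE 0.61) for the same genes in the same order, with 4 of 4 not overlapping beside 5.98% of genes. Without unstimulated replicate 3 the median moved from 1.97 to 2.75 for IL-2-REH at 90 min and from 2.9 to 3.71 for IL-2 at 4 hr. IL-2-REH at 4 hr was above unstimulated cells by a median of 1.59, from 1.36 for *Gm6455* to 1.73 for *4933402N22Rik*, and 0 of 4 were free of overlap beside 7.68% of genes. The single unstimulated replicate 3 reached above the lowest IL-2-REH library at 4 hr for each of the 4 genes. Without that unstimulated library the median was 2.2, and without IL-2-REH replicate 3 at 4 hr it was 0.96.

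At 90 min IL-2-REH was below IL-2 by a median of 2.01 on the log2 scale, which is 4.02-fold, as values only. The differences were -2.07 for *4933402N22Rik* (SE 0.77), -2.03 for *Gm6460* (SE 0.74), -1.99 for *Gm6455* (SE 0.68) and -1.76 for *Speer1-ps1* (SE 0.58). In RPKM the groups did not overlap for 4 of 4 genes, beside 3.04% of all genes, but on TMM-scaled log2 CPM for 1 of 4, beside 3.14%. The gap between the groups lay between IL-2 replicate 1 and IL-2-REH replicate 3. Without IL-2 replicate 3 the median difference was -1.20.

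Whether IL-2-REH and IL-2 differ at 4 hr could be tested on groups outside the contrast that chose the genes, although their libraries share replicate numbers with those of that contrast. All 4 genes were lower with IL-2-REH, by -1.75 for *Gm6460* (SE 0.74, 95% interval -3.34 to -0.16), -1.37 for *4933402N22Rik* (SE 0.76, -3.00 to 0.26), -1.33 for *Gm6455* (SE 0.67, -2.78 to 0.11) and -0.97 for *Speer1-ps1* (SE 0.58, -2.21 to 0.27) on the log2 scale. The median was -1.35, beside 0.01 over all genes. None passed edgeR's quasi-likelihood test after Benjamini-Hochberg adjustment over the 15009 genes, with an adjusted p of 0.9996 for each (0 of 4, beside 0.0267% of all genes). Before adjustment 1 of 4, *Gm6460*, was under 0.05, beside 3.72% of genes, and *Gm6460* was also the 1 gene whose RPKM groups did not overlap, beside 2.36% of genes. The sum of *Cd8a*, *Cd8b1* and *Cd3e* moved with this comparison, at 133 to 143 RPKM with IL-2-REH and 89.2 to 123.3 RPKM with IL-2. Most of it was *Cd3e*, which all T cells share, with means of 128 and 106 RPKM. *Cd8b1* had means of 7.74 and 4.77 RPKM, and *Cd8a* of 0.738 and 0.265 RPKM. *Foxp3* was also apart, at 67.2 to 124 RPKM with IL-2-REH and 151 to 211 RPKM with IL-2. The part of these genes in the result was not tested. In this fit, without pairing, the intervals of 3 of the 4 genes hold both 0 and differences of several fold.

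Same-numbered libraries deviated together, so the comparison was also fitted with the replicate number as a block. The differences were then -1.92 (95% interval -2.89 to -0.96) for *Gm6460*, -1.57 (-2.56 to -0.58) for *4933402N22Rik*, -1.52 (-2.54 to -0.51) for *Gm6455* and -1.15 (-2.0 to -0.29) for *Speer1-ps1*, and none of these 4 intervals, which are not adjusted over genes, holds 0. All 4 genes were under 0.05 before adjustment, beside 6.2% of all genes, and 0 of 4 passed after it, with adjusted p of 0.18 to 0.62 in edgeR's test. The adjusted p over all alternatives ran from 0.18 to 1. In the fit without the block, the differences grew to between -2.45 for *Gm6460* and -1.52 for *Speer1-ps1* without IL-2-REH replicate 3 at 4 hr. They shrank without replicate number 2, to -0.79 for *Gm6455* and -0.56 for *Speer1-ps1*, and *Speer1-ps1* differed by -0.62 without IL-2-REH replicate 2 at 4 hr alone. Within replicate numbers the summed IL-2-REH level was 58.3%, 16.1% and 53.9% of the IL-2 level, lower in 3 of 3. Replicate 2 had the lowest share at both times.

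The second test asked whether the response to IL-2-REH changed from 90 min to 4 hr. The differences were -0.64 for *Gm6455* (SE 0.67), -0.59 for *Gm6460* (SE 0.73), -0.35 for *Speer1-ps1* (SE 0.57) and -0.20 for *4933402N22Rik* (SE 0.75), beside a median of 0.04 over all genes. Adjusted p in edgeR's test ran from 0.67 to 0.92, so 0 of 4 genes passed, beside 0% of all genes, of which 2188 were under 0.05 before adjustment. None of the 4 was under 0.05 before adjustment (0 of 4). DESeq2 called 253 genes in this comparison and likewise 0 of the 4. Groups overlapped for all 4 genes, while 6.91% of all genes were lower without overlap. The summed Treg markers were 805 to 929 RPKM at 90 min and 514 to 725 RPKM at 4 hr. Most of that fall was *Ctla4*, with means of 455 and 245 RPKM. Means at the 2 times were 114 and 101 RPKM for *Foxp3*, 62.5 and 53.7 for *Ikzf2* and 108 and 94.9 for *Cd4*. *Il2ra* went the other way, from 113 to 125 RPKM. The part of these markers in this comparison was not tested. The widest interval, that of *4933402N22Rik*, ran from -1.81 to 1.41. It comes from the fit without pairing, although same-numbered libraries deviated together here, with r of 0.72, 0.61 and 0.48 in replicates 1 to 3. With the replicate number as a block, 0 of 4 genes were under 0.05 before adjustment in edgeR's test, beside 3240 of 15009 genes. In the fit without pairing, leaving out IL-2-REH replicate 3 at 90 min turned *Gm6460*, *Speer1-ps1* and *4933402N22Rik* to 0.037, 0.029 and 0.49. *4933402N22Rik* also turned, to 0.22, without IL-2-REH replicate 2 at 4 hr. Without IL-2-REH replicate 3 at 4 hr, in contrast, the differences lay between -1.30 for *Gm6460* and -0.82 for *4933402N22Rik*. Leaving out a whole replicate number kept every difference negative, from -0.68 for *Gm6455* to -0.10 for *4933402N22Rik*. Within replicate numbers the summed RPKM with IL-2-REH at 4 hr was 69.6%, 80.2% and 87.6% of that at 90 min. The level was higher at 90 min in 11 of the 12 combinations of a gene and a replicate number, which are not independent. With IL-2, as values only, the level at 4 hr was below that at 90 min by a median of -1.02, and the summed RPKM was 74.0%, 75.3% and 37.8% of that at 90 min in replicates 1 to 3. Those groups overlapped for all 4 genes, 0 of 4, beside 8.62% of genes that were lower without overlap, and the median was -0.30 without IL-2 replicate 3 at 90 min.

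**Figure D3:**
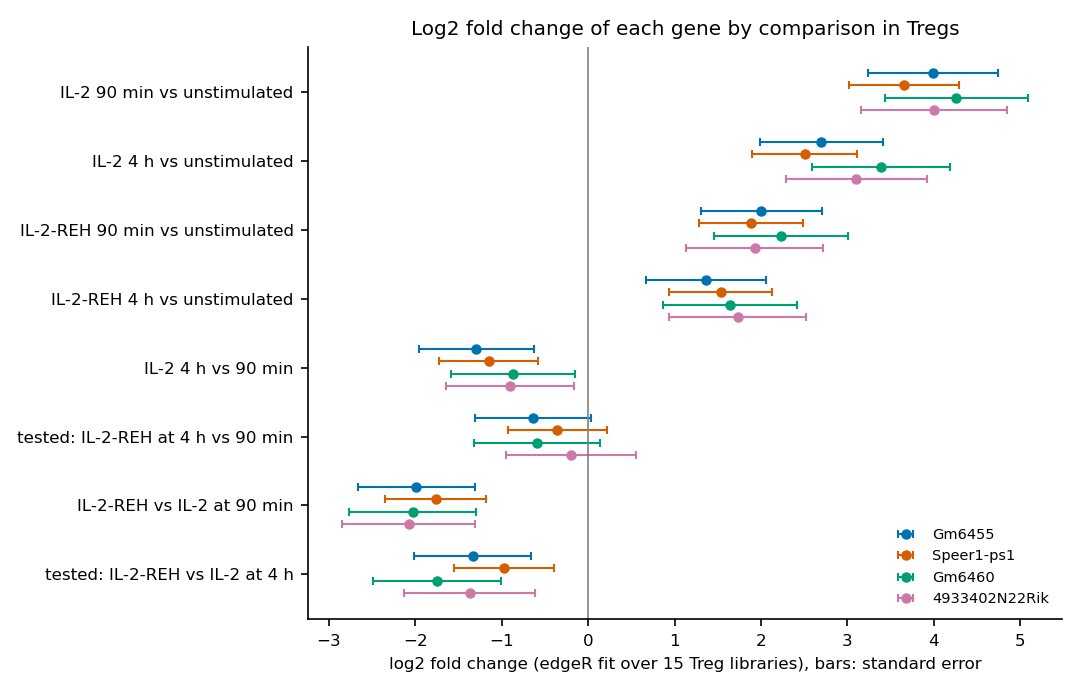
Log2 fold change of each of the 4 genes (colors) in 8 comparisons of Treg groups, from 1 edgeR fit over 15 libraries, with standard errors as bars. The 2 comparisons marked as tested use groups outside the contrast that chose the genes, and none of the 4 genes passed in either.

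CD8+ T cells held few reads of the 4 genes. The sum of their reads was 1 in unstimulated cells (exact 95% Poisson interval 0.0253 to 5.57), 17 with IL-2 at 90 min (9.90 to 27.2), 10 with IL-2-REH at 90 min (4.80 to 18.4), 12 with IL-2 at 4 hr (6.20 to 21) and 18 with IL-2-REH at 4 hr (10.7 to 28.4). These intervals cover counting error only. There is 1 library per group, so these values carry no test. The 4 stimulated intervals overlap one another. The unstimulated interval overlaps that of IL-2-REH at 90 min and lies below the other stimulated intervals. *Gm6460* had 0, 10, 2, 3 and 3 reads in that order of groups, *Gm6455* 0, 4, 3, 4 and 8, *Speer1-ps1* 1, 1, 4, 2 and 5, and *4933402N22Rik* 0, 2, 1, 3 and 2. A count of 0 in the unstimulated library still allows 3.69 reads, which is 0.0731 RPKM for *Gm6460*.

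Every CD8+ library was below every Treg library for the sum of the 4 genes. The highest CD8+ sum, 0.268 RPKM, compares with 0.612 RPKM in the lowest unstimulated Treg library, at 61428696 to 72417821 mapped reads per CD8+ library. *Cish* was read beside them as a known IL-2 target. In CD8+ T cells *Cish* stood at 1.87 RPKM without cytokine, 30.6 with IL-2 against 2.47 with IL-2-REH at 90 min, and 26.1 and 2.45 at 4 hr. The same gene in Tregs had means of 58.1 RPKM unstimulated, 229 and 114 with IL-2 and IL-2-REH at 90 min, and 165.6 and 95.9 at 4 hr. In these bulk libraries, fewer cells with a transcript and less of it per cell cannot be told apart, and cell type cannot be told apart from the mouse line and isolation that go with it.

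**Figure D4:**
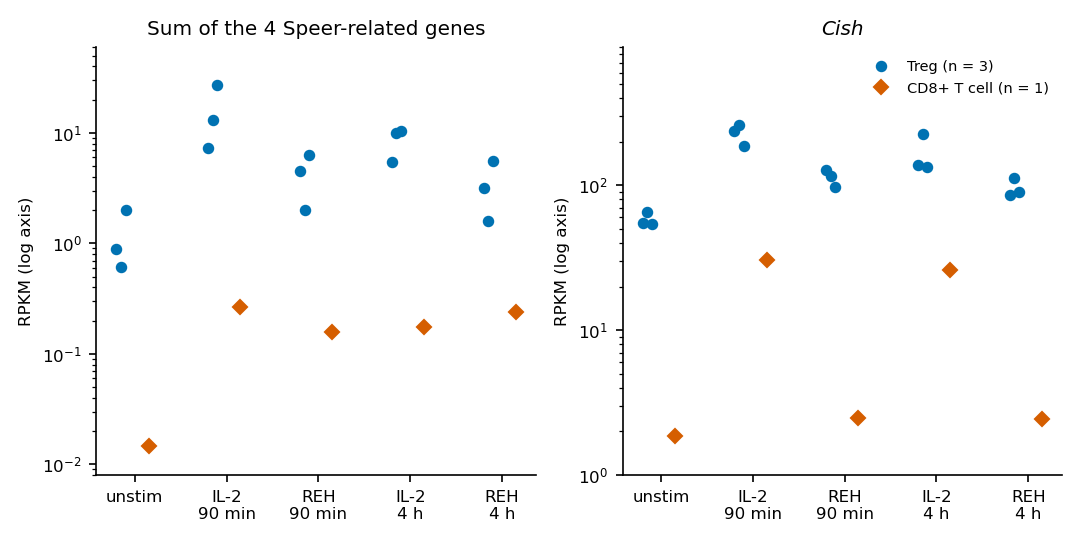
RPKM (log axes) of the sum of the 4 genes (left) and of Cish (right) in each Treg library (circles, n = 3 per group) and each CD8+ T cell library (diamonds, n = 1). The CD8+ sums stay at or under 0.268 RPKM in all 5 groups, while Cish in CD8+ T cells stands at 30.6 with IL-2 against 2.47 with IL-2-REH at 90 min.

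The other Speer-named genes in the tables had few or no reads in Tregs. Of 14 Speer-named genes in the tables, 3 passed the filter on low counts, *Speer1-ps1*, *Speer6-ps1* and *Speer4b*, and 0 of these 3 were called in either tested comparison. *Speer2* and *Speer3*, the nearest Speer-named relatives in sequence, had 14 and 29 reads over all 15 Treg libraries, against 1900 for *Speer1-ps1*. *Speer4a*, *Speer4c*, *Speer4d* and *Speer9-ps1* had 0. Of 49 relatives by sequence other than the 4 genes, the tables hold 20, and the rest were not measured here. Of these 20, 2 passed the filter, *Speer4b* and *Gm10471*, and neither was called. No gene of these lists other than the 4 reached a mean of 0.5 RPKM, so the genes in this paragraph are named after their values were seen.

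*Speer6-ps1*, a pseudogene on another chromosome (chr13:3149475-3189678), had reads in a pattern like that of the 4 genes. It had 4, 0 and 1 reads in unstimulated replicates 1 to 3, 15, 18 and 31 with IL-2, against 4, 0 and 10 with IL-2-REH at 90 min. At 4 hr it had 13, 16 and 9 reads with IL-2, against 14, 1 and 5 with IL-2-REH. All IL-2 libraries were above the unstimulated ones, while the IL-2-REH libraries were not. With IL-2-REH relative to IL-2 at 4 hr it differed by -0.87 (SE 1.22, adjusted p 0.9996 in edgeR's test). *Speer4b* had at most 20 reads in a library and no such order, with 13, 0 and 0 reads in unstimulated cells and 3, 0 and 5 with IL-2 at 90 min.

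Neighbors outside the family were 2 genes of the tables within 500 kb. *1700003C15Rik*, an lncRNA gene inside the array, had 11 reads over all 15 Treg libraries and did not pass the filter. *Sema3d*, a secreted semaphorin, passed it at a mean of 0.200 RPKM. It had 64, 219 and 153 reads in unstimulated cells and 93, 70 and 45 with IL-2 at 90 min, and differed by 0.11 (SE 0.77, adjusted p 0.9996 in edgeR's test) with IL-2-REH relative to IL-2 at 4 hr.

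Among the 5 genes most like the mean of the 4 over the 15 Treg libraries, by Pearson's r of log2 CPM, were *Ripk1*, a kinase of death receptor signaling (r = 0.903), *Rnf19b*, an E3 ubiquitin ligase (0.885), *Tiam1*, a Rac exchange factor (0.877), and *Gimap9*, a GTPase of the immune-associated family (0.872). These are descriptions over libraries that share their groups. *Rnf19b* stood at 28.3 ± 2.65 RPKM in unstimulated Tregs, 147 ± 31.5 with IL-2, against 62.8 ± 16.4 with IL-2-REH at 90 min, and 101 ± 15.5 and 46.8 ± 2.79 at 4 hr (mean ± SD, n = 3). *Ripk1* covered a smaller range, from 14.4 ± 0.114 RPKM unstimulated to 25.8 ± 3.59 with IL-2 at 90 min. After centering each replicate number on its mean, *Cish* came first (r = 0.970), and *Ripk1* and *Rnf19b* were the 2 of the 5 that stayed in the first 5.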

How the data were processed

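RNA-seq libraries (50-base single-end reads) were mapped by the authors to mm10 with Bowtie2 2.2.6 and TopHat2 2.1.1, per the study's methods and processing notes, which also name SAMtools 0.1.8 and bedtools 2.25.0. Uniquely mapped reads on exons were kept. Whether strand was used in counting is not given in the sources used here. The authors deposited, for each of 31682 transcripts, the read count and the RPKM of each library. The transcript with the most reads stood for a symbol. The members and lists were chosen with earlier results of these data known. The named genes were the 4 genes, list genes with a mean of at least 0.5 RPKM or called in a tested comparison, the 5 most similar genes, of which 1 is not reported here, genes overlapping a member, and *Cish*.

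Read counts of the 15 Treg libraries were fitted with edgeR 4.0.16 (TMM, filterByExpr, quasi-likelihood test, 1 mean per group) in R 4.3.3, and Benjamini-Hochberg adjustment ran over 15009 genes, with calls at an adjusted p under 0.05. On counts simulated for IL-2-REH against IL-2 at 4 hr (14684 genes), 67 of 100 genes changed by 2 on the log2 scale were recovered and 12 of 98 changed by 1. The simulation held no effect of replicate number and took each gene's spread from a trend over genes. It averages over genes of all levels, so it does not give the recovery for the 4 genes. Their pooled SD within groups was 0.76 to 1.02 in log2 CPM. The replicate numbers of the titles gave correlations of 0.12 to 0.84 between deviations from the group means in every pair of every comparison. Same-numbered libraries were therefore taken as pairs in an alternative, the replicate block, while the main fit held no replicate term. Alternatives were the replicate block, DESeq2 1.42.0, its size factors in edgeR, no filter, limma 3.58.1 on log2(RPKM + 1) at a mean of at least 1 RPKM, the longest transcript, only the compared groups and leaving out each replicate number. Leaving out single libraries, the overlap on log2 CPM, blastn relatives (BLAST+ 2.17.0, E at most 1e-10) and the 50-base windows are choices made once the data were known. Identity was taken from MAFFT 7.526 alignments. A list of relatives by protein was planned and not used here.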

Additional observations from a re-analysis of the deposited data

How the results depend on the processing

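None of the 4 genes passed either tested comparison under any alternative run (50 results over both). With the replicate block, 0 of the 4 passed, and genes called overall were 10 in place of 4 for IL-2-REH against IL-2 at 4 hr and 6 in place of 0 for IL-2-REH at 4 hr against 90 min. DESeq2 called 56 and 253 genes. In the first comparison limma on log2(RPKM + 1) and a fit of only the compared groups called 0, and leaving out a replicate number or a library gave 0 to 11. In the second, the same gave 0 to 574, the highest without replicate 1. The cause was not tested. The 4 reversals lay in the second comparison. Without IL-2-REH replicate 3 at 90 min, *Gm6460*, *Speer1-ps1* and *4933402N22Rik* differed by 0.037, 0.029 and 0.49, and without IL-2-REH replicate 2 at 4 hr *4933402N22Rik* differed by 0.22. Without IL-2-REH replicate 3 at 4 hr, the lowest values were -1.30 for *Gm6460*, -0.91 for *Speer1-ps1* and -0.82 for *4933402N22Rik*.

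The median of the 4 genes kept its sign under the alternatives run in every comparison except IL-2-REH at 4 hr against 90 min, where 3 of 4 genes were above 0 without IL-2-REH replicate 3 at 90 min. With limma on log2(RPKM + 1), which compresses low values by construction, the medians were 1.84 for IL-2 at 90 min, 1.23 for IL-2 at 4 hr, 0.67 for IL-2-REH at 90 min and 0.50 for IL-2-REH at 4 hr against unstimulated cells. Leaving out replicates or libraries, they ran from 3.16 to 4.79, 2.44 to 3.71, 1.51 to 2.75 and 0.96 to 2.2 in the same order. The highest of each came without unstimulated replicate 3, and the lowest without IL-2 replicate 3 at 90 min, all of replicate 2, and IL-2-REH replicate 3 of the time compared. In CD8+ T cells, the median log2 ratios over unstimulated cells were 0.056 for IL-2 and 0.058 for IL-2-REH at 90 min, and 0.066 and 0.069 at 4 hr, with a pseudocount of 1 RPKM. With a pseudocount of 0.1 RPKM they were 0.48 and 0.47, and 0.55 for each at 4 hr, so the size of these ratios is set by the pseudocount. Of the 5 most similar genes, 2 stayed after centering, 2 with Spearman's rho, and 1 to 2 without a replicate number. Depth limits the CD8+ values, which rest on at most 18 reads per library, and no depth separates copies that share all 50-base windows.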
